A study of Mus musculus with 4 samples.

Results

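Glycolysis and pentose phosphate genes were described in 4T1 cells sorted by mitochondrial membrane potential (MMP), and neither branch was separated as a whole by the sort. The 33 listed symbols cover glucose and lactate transport and the enzymes from hexokinase to lactate dehydrogenase. They also cover the makers of fructose 2,6-bisphosphate, the pentose phosphate branch, and a group of glycogen and glucose 1-phosphate genes. Members were found by symbol, and 32 of the 33 symbols had a row among the 20197 genes of the table. *Slc16a3*, a lactate exporter, was not analysed here. The symbol *Aldoa* names 2 rows, the main gene and a short upstream gene model, so 33 rows are described. Each of the 33 rows had a mean of at least 10, and the fewest reads behind a value were 21.

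4T1 is a mouse mammary tumour line that spreads to the lungs. Both groups were wild-type 4T1 cells grown in the same medium and stained with 20 nM MitoSpy Red, a dye that mitochondria take up according to their membrane potential. High MMP cells were the brightest 5% and low MMP cells the dimmest 5% of the sort, with 2 samples per group, 100000 cells and 200 ng of RNA per sample. The study counts its replicates as independent experiments or tumours, and the labels number the samples 1 and 2 within each group without saying that equal numbers mark 1 culture or day. Because each sample is a bulk of sorted cells from 1 cell line, fewer expressing cells and less RNA per cell cannot be told apart.

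Depth ran from 22591970 to 26395015 reads per library. Values are reads scaled to a total of 20000000 per library, and a difference is the high MMP mean minus the low MMP mean of log2(value + 1). Each SE is that of limma, which draws a gene's variance toward that of genes at a similar level. It is therefore not the spread of that gene's replicates alone. The epithelial markers *Epcam*, *Cdh1*, *Krt8*, *Krt18*, *Krt19* and *Cldn7* were present in all libraries, and their summed values were 49547 in high MMP 1, 36574 in high MMP 2, 42813 in low MMP 1 and 49231 in low MMP 2. Of 6 blood cell markers 4 had a row, with sums of 72.0 to 158 that were mostly *Cd68*, and *Ptprc* had a value of at most 1.77. Of 5 fibroblast markers 3 had a row, with sums of 334, 374, 548 and 604 in the same order that were mostly *Pdgfra*, while *Dcn* had at most 9.09. *Pdgfra* did not overlap between groups, at a difference of -0.72 (SE 0.11, unadjusted limma p 0.00270, adjusted 0.472). The other 2 fibroblast markers, on 2 to 12 reads per library, had differences of -0.52 (*Pdgfrb*) and 0.67 (*Dcn*). The epithelial marker *Cdh1* did not overlap either, at -0.34 (SE 0.12, adjusted limma p 0.498). *Pdgfra* and *Cdh1* had the direction of *Slc16a1*, *Slc2a1* and the other members with lower values in both high MMP libraries. Their part in the values of those members was not tested. Of 4 endothelial markers 2 had a row, with sums of 1.74 to 6.20.

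Glycolysis splits glucose into pyruvate, and cells that make lactate from pyruvate recover the NAD+ that the pathway needs. The pentose phosphate branch leaves glycolysis at glucose 6-phosphate: its oxidative steps make NADPH, and its non-oxidative steps exchange sugar phosphates with glycolysis and supply ribose for nucleotides. Tumour cells are known for taking up much glucose and secreting lactate even where oxygen is present, and many glycolytic genes are textbook targets of hypoxia-inducible factors.

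Promoters of 4 members are shown because they stand for the patterns described below. *Slc16a1* and *Eno2* were among the members with lower values in both high MMP libraries. *Hk2* and *Pgk1* had their highest value in one high MMP library and their lowest in the other. Each sequence is the 250 bases before a RefSeq transcript start on GRCm38.p6, 5′ to 3′ on the gene's strand, and capitals mark every ACGTG or GCGTG on either strand (CACGT and CACGC when read on the printed strand). A CACGTG holds ACGTG on both strands and was counted on each.
Slc16a1, chr3:104638414-104638663, plus strand: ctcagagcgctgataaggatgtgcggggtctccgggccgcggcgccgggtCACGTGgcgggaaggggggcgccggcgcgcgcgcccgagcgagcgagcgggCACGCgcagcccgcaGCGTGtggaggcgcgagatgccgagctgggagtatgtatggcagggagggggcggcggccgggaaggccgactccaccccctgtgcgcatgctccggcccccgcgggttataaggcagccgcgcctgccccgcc
Eno2, chr6:124769674-124769923, minus strand: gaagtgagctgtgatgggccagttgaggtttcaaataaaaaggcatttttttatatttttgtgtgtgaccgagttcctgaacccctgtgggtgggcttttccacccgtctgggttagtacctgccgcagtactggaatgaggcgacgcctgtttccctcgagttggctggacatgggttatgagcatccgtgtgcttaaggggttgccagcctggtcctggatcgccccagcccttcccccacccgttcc
Hk2, chr6:82774455-82774704, minus strand: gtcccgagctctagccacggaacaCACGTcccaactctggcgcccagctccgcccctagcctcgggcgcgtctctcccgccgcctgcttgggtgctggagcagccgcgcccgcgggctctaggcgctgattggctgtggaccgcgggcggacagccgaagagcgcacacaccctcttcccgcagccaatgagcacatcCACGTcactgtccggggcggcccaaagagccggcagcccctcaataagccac
Pgk1, chrX:106186850-106187099, plus strand: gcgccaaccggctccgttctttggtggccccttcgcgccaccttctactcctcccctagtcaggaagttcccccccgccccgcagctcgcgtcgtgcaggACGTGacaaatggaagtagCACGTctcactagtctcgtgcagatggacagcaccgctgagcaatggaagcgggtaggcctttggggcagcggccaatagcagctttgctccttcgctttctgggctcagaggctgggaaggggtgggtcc

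The *Slc16a1* window held 4 matches, the *Hk2* and *Pgk1* windows 2 each, and the *Eno2* window 0. At least 1 match was found in 27 of the 32 member genes (84.4%), counting any RefSeq promoter of a gene. The share was 41.5% of all 27025 genes with a promoter and 63.1% of the 9014 protein-coding genes whose mean was at least 10. By branch it was 14 of 17 glycolysis genes and 6 of 7 pentose phosphate genes. These 5-letter matches are frequent and are a description of the windows only.

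For the comparison of high with low MMP cells, no member passed the test. limma called 0 of the 33 rows and 0 of all 20197 genes (0%) at an adjusted p of 0.05, and the adjusted p-values of the members ran from 0.472 to 0.998. At an unadjusted limma p under 0.05 there were 4 members, *Slc16a1*, *Aldoc*, *Eno2* and the upstream *Aldoa* row. That is 12.1% of the members beside 9.96% of all genes. All 4 had lower values in high MMP cells, a direction that 6.01% of all genes had at this p, and 0 members had higher values, beside 3.95% of all genes. On the recovered reads, edgeR without a block called 0 members, with 4 at an unadjusted p under 0.05, and DESeq2 called 0, with 2, beside 0.985% of the genes it tested. With the replicate block edgeR called 0 members (0.39% of its genes), and with the numbers crossed, chosen after seeing the data, it called 1, the upstream *Aldoa* row (4.66% of its genes). The share of all genes at an unadjusted p under 0.05 is given for the main limma fit only, so the other unadjusted counts have no background beside them. With 1 library left out, a group holds 1 sample, and those fits are described by their differences.

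Both high MMP values lay below both low MMP values for 8 members (24.2%, beside 24.5% of all genes) and above them for 2 members (6.06%, beside 13.5%). The other 23 members overlapped. The difference was above 0 for 9 of the 33 members, beside 41.4% of all genes. That count was 23 without high MMP 2, 14 without low MMP 2, 3 without high MMP 1 and 3 without low MMP 1, and it was 14 in edgeR without a block and in DESeq2. With 2 samples a group an exact permutation test cannot go below p = 0.333 for a single gene. The plot of each gene in each library shows these orders.

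**Figure D1:**
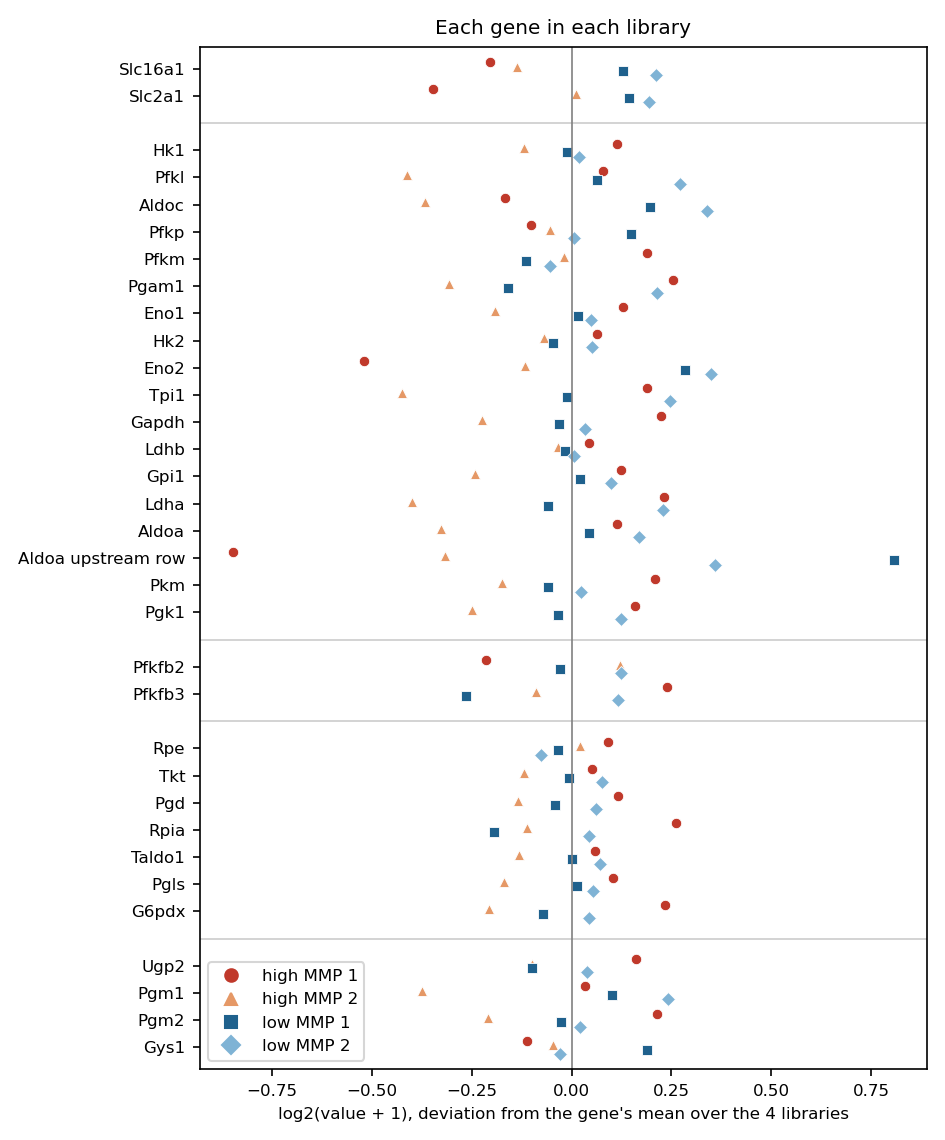
Deviation of each gene from its mean over the 4 libraries (x axis, log2(value + 1)), with 1 row per gene grouped by role and 1 symbol per library, set slightly apart in height for legibility. The 8 members with both high MMP libraries on the left include *Slc16a1*, *Slc2a1*, *Aldoc* and *Eno2*, while most enzymes of glycolysis have high MMP 2 at the far left and high MMP 1 at the far right.

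Both transporters had lower values in the high MMP libraries. *Slc16a1* (ENSMUSG00000032902, GRCm38 chromosome 3, 104638668 to 104658462) encodes MCT1, which carries lactate and pyruvate across the plasma membrane. Its values were 3920 in high MMP 1, 4108 in high MMP 2, 4934 in low MMP 1 and 5222 in low MMP 2. The groups did not overlap and the libraries of each group lay close together, at 4014 ± 133 in the high and 5078 ± 204 in the low MMP libraries (SD, n = 2 each). The log2 difference was -0.34 (SE 0.09), with an adjusted limma p of 0.472, and it stayed between -0.38 and -0.30 when each library was left out in turn.

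*Slc2a1* (ENSMUSG00000028645, chromosome 4, 119108711 to 119137983) encodes GLUT1, the main glucose importer of many cell types. It had 1841 in high MMP 1, 2360 in high MMP 2, 2588 in low MMP 1 and 2681 in low MMP 2. The groups did not overlap, but on the log2 scale the high MMP libraries were -0.36 apart, as much as the groups (-0.34, SE 0.14, adjusted limma p 0.571). Unlike most enzymes below, *Slc2a1* was lowest in high MMP 1.

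The enzymes of glycolysis are given in the order of the pathway. The hexokinases, which trap glucose as glucose 6-phosphate, did not separate the groups. *Hk1* had 3116 and 2649 in high MMP 1 and 2 and 2852 and 2913 in low MMP 1 and 2. *Hk2* had 2960 and 2703 in high and 2745 and 2935 in low MMP cells. For both genes the low MMP values lay between the high MMP values, and the differences were -0.0048 and -0.0049 (SE 0.11 and 0.09), with a sign that turned to positive under median-of-ratios, TMM and quantile scaling.

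*Gpi1*, the isomerase that makes fructose 6-phosphate, had 9243 and 7167 in high and 8602 and 9078 in low MMP cells, so the high MMP libraries lay on either side of the low ones. Phosphofructokinase, the committed step of glycolysis, has 3 isozymes, and they did not follow each other. *Pfkl*, the liver-type isozyme, had 6192 and 4402 in high and 6119 and 7072 in low MMP libraries, with a difference of -0.33 (SE 0.20) that fell to -0.09 without high MMP 2. The groups overlapped because high MMP 1 exceeded low MMP 1.

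*Pfkp*, the platelet-type isozyme, had 2008 and 2074 in high and 2389 and 2163 in low MMP cells. Its groups did not overlap, with a difference of -0.16 (SE 0.09, adjusted limma p 0.690). *Pfkm*, the muscle-type isozyme, was the opposite case and 1 of the 2 members with higher values in both high MMP libraries. It had 593 and 514 in high and 481 and 501 in low MMP cells, with 514 against 501 as the closest pair, and a difference of 0.17 (SE 0.11, adjusted limma p 0.724) that was 0.07 without high MMP 1.

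Aldolase cleaves fructose 1,6-bisphosphate. *Aldoa* (ENSMUSG00000030695, chromosome 7, 126795234 to 126800751) had 20899 and 15376 in high and 19905 and 21710 in low MMP cells, so the groups overlapped at a difference of -0.21 (SE 0.19). *Aldoc* (ENSMUSG00000017390, chromosome 11, 78322968 to 78327781), the brain-type isozyme, had 100.02 and 87.0 in high and 129 and 143 in low MMP cells. These rest on 104 to 161 reads per library, and the groups did not overlap, at 93.5 ± 9.18 against 136 ± 9.55 (SD, n = 2 each). The *Aldoc* difference was -0.53 (SE 0.15, adjusted limma p 0.472).

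The upstream row named *Aldoa* (ENSMUSG00000114515, chromosome 7, 126800790 to 126809108, 799 exon bases) is annotated as a gene of its own before the start of the main *Aldoa* gene. It held 21 and 28 reads in high MMP 1 and 2 and 60 and 43 reads in low MMP 1 and 2, or scaled values of 15.9, 23.4, 52.3 and 38.1. The groups did not overlap, and the difference of -1.17 (SE 0.32, adjusted limma p 0.472) was the largest of any member. The main row had the same sign at a smaller size, and its groups overlapped.

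The next 3 enzymes differed between the 2 high MMP libraries by 0.41 to 0.61 on the log2 scale. *Tpi1*, triose phosphate isomerase, had 11068 and 7229 in high and 9628 and 11517 in low MMP libraries, with a difference of -0.24 (SE 0.25). *Gapdh*, which reduces NAD+ and is often used as a reference gene, had 29097 and 21319 in high and 24391 and 25490 in low MMP libraries, with a difference of -0.0016 (SE 0.20) that turned positive under median-of-ratios and TMM scaling. *Pgk1*, which makes the first ATP of the pathway, had 8404 and 6331 in high and 7346 and 8205 in low MMP cells. For *Gapdh* and *Pgk1* both low MMP values lay between the high MMP values, and for *Tpi1* low MMP 2 was the highest of the 4.

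*Pgam1*, the mutase that follows, had 3315 and 2245 in high and 2488 and 3221 in low MMP cells. *Eno1*, the main enolase, had 25951 and 20787 in high and 23979 and 24531 in low MMP cells. In both the low MMP values again lay between the high MMP values, with differences of -0.05 (SE 0.24) and -0.06 (SE 0.16). *Eno2* (ENSMUSG00000004267, chromosome 6, 124760053 to 124769673), the neuronal-type enolase, did not share this order. It had 48.5 and 64.4 in high and 85.4 and 89.4 in low MMP cells on 64 to 101 reads per library, so the groups did not overlap, and the difference was -0.64 (SE 0.21, adjusted limma p 0.472).

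The last steps repeated the order of *Gapdh*. *Pkm*, pyruvate kinase, the most abundant member per kilobase of exon, had 59989 and 45974 in high and 49862 and 52784 in low MMP libraries, with a difference of 0.03 (SE 0.20). *Ldha*, which makes lactate from pyruvate, had 31072 and 20062 in high and 25386 and 31014 in low MMP libraries, with a difference of -0.17 (SE 0.27). *Ldhb*, the isozyme of tissues that burn lactate, had 214 and 203 in high and 206 and 209 in low MMP cells. The gap between the high MMP libraries was 0.63 for *Ldha*, more than 3 times the size of its difference between groups, and 0.08 for *Ldhb*.

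*Pfkfb2* and *Pfkfb3* make and break fructose 2,6-bisphosphate, the activator of phosphofructokinase. *Pfkfb2* had 136 and 172 in high and 155 and 173 in low MMP cells, and *Pfkfb3* had 411 and 327 in high and 289 and 377 in low MMP cells. The groups overlapped for both, and their differences had opposite signs, at -0.09 (SE 0.17) and 0.15 (SE 0.19).

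In the pentose phosphate branch 0 of 7 genes had an unadjusted limma p under 0.05, beside 9.96% of all genes, and 1 of 7 had groups that did not overlap, beside 37.9%. The oxidative genes shared the order seen in glycolysis. *G6pdx*, the first and rate-limiting enzyme, had 2682 and 1976 in high and 2171 and 2348 in low MMP cells. *Pgls*, the lactonase, had 890 and 736 in high and 836 and 860 in low MMP cells. *Pgd*, the second NADPH-making enzyme, had 5402 and 4536 in high and 4838 and 5194 in low MMP cells. For these 3 genes high MMP 1 was the highest and high MMP 2 the lowest of the 4 libraries, and the differences were 0.03, -0.07 and -0.02 (SE 0.17, 0.12 and 0.12), that of *Pgd* turning positive under median-of-ratios and TMM scaling.

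The non-oxidative genes were less alike. *Rpe*, the epimerase, was the other member with higher values in both high MMP libraries, with 1644 and 1566 in high and 1506 and 1463 in low MMP cells. Its difference was small, at 0.11 (SE 0.08, adjusted limma p 0.748), and it was between 0.08 and 0.15 with any 1 library left out. The limma SE was the smallest of any member, a value that depends on genes of similar level as well as on the replicates. *Rpia*, the isomerase that makes ribose 5-phosphate, had 1196 and 923 in high and 871 and 1028 in low MMP cells, so its groups overlapped at a difference of 0.15 (SE 0.17).

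*Tkt* and *Taldo1*, the transketolase and transaldolase that return carbon to glycolysis, had their highest value in low MMP 2 and their lowest in high MMP 2. *Tkt* had 9967 and 8855 in high and 9585 and 10156 in low MMP cells. *Taldo1* had 2706 and 2369 in high and 2601 and 2730 in low MMP cells. Their differences were both -0.07 (SE 0.11 and 0.10), less than the gap of 0.17 and 0.19 between the high MMP libraries.

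Of the 4 glycogen and glucose 1-phosphate genes, 2 had groups that did not overlap. Both had lower values in high MMP cells, beside 24.5% of all genes in that direction. *Pgm1* (ENSMUSG00000025791, chromosome 4), a phosphoglucomutase, had 914 and 689 in high and 957 and 1055 in low MMP cells, and *Gys1*, glycogen synthase, had 1145 and 1198 in high and 1411 and 1212 in low MMP cells. Neither overlapped between groups, with differences of -0.34 (SE 0.17) and -0.16 (SE 0.11) and adjusted limma p-values of 0.628 and 0.738, but *Gys1* rested on a gap between 1198 and 1212 that closed under median-of-ratios and TMM scaling. *Pgm2* (ENSMUSG00000029171, chromosome 5), which carried the name *Pgm1* in older annotations, had 1185 and 885 in high and 1004 and 1038 in low MMP cells. *Ugp2*, which makes UDP-glucose, had 1315 and 1097 in high and 1098 and 1207 in low MMP cells. In both of these genes the low MMP values lay between the high MMP values.

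When glycolysis was compared with the pentose phosphate branch, the differences between high and low MMP cells were small in both. The median was -0.10 over the 18 glycolysis rows (-0.09 without the upstream *Aldoa* row) and -0.02 over the 7 pentose phosphate genes, beside -0.04 over all genes and -0.01 over the 4750 genes whose mean was at least 1000. Both medians depended on single libraries. They became -0.30 and -0.16 without high MMP 1, and 0.07 and 0.11 without high MMP 2, and the pentose phosphate median was 0.02 under median-of-ratios or TMM scaling.

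Glycolysis lay below the pentose phosphate branch by 0.09 in these medians, a description with no test. Against low MMP 1, high MMP 1 had branch medians of 0.11 and 0.13 for glycolysis and pentose phosphate, and high MMP 2 had -0.21 and -0.11. Against low MMP 2, high MMP 1 had 0.02 and 0.06, and high MMP 2 had -0.36 and -0.20. The glycolysis median was the lower one in each of these 4 contrasts, which share libraries, by 0.01 to 0.16. Between the high MMP libraries the medians differed by 0.34 in glycolysis and 0.25 in the pentose phosphate branch, and between the low MMP libraries by -0.08 in each.

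**Figure D2:**
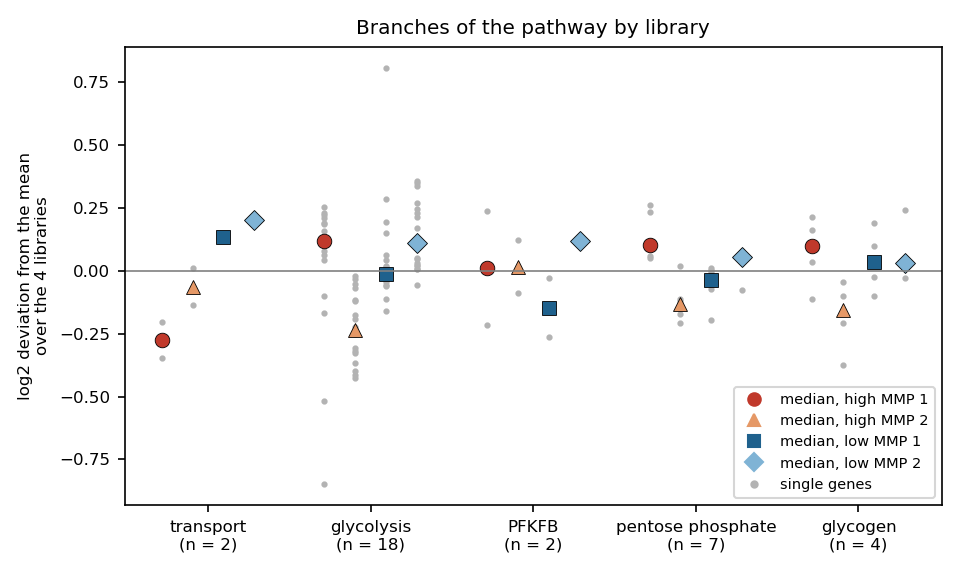
Deviation from the mean over the 4 libraries (y axis, log2(value + 1)) for each role, with grey points for single genes and a large symbol for the median in each library. In glycolysis and the pentose phosphate branch high MMP 1 has the highest median (0.12 and 0.10) and high MMP 2 the lowest (-0.23 and -0.13), with the low MMP libraries between them.

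The order with high MMP 2 below, high MMP 1 above and both low MMP libraries between them held for 15 of 33 members (45.5%), beside 11.2% of all genes and 18.7% of genes whose mean was at least 1000. It held for 10 of 18 glycolysis rows, 3 of 7 pentose phosphate genes and 2 of 4 glycogen and glucose 1-phosphate genes. High MMP 2 was the lowest of the 4 libraries for 22 members (66.7%, beside 29.9% of all genes), and high MMP 1 the highest for 19 (57.6%, beside 25.1%). High MMP 2 was below both low MMP libraries for 28 members (84.8%, beside 42.1%). Among genes whose mean was at least 1000 these shares were, in this order, 30.2%, 34.3% and 42.5%. Set against the equal number, high MMP 1 was above low MMP 1 for 24 members, beside 44% of all genes, and high MMP 2 above low MMP 2 for 2 members, beside 41.8%. The 2 high MMP libraries carry the same label, yet they lay on opposite sides of the low MMP libraries in the order described first. With 2 libraries per group, spread within a group and a difference that varies by replicate cannot be told apart.

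The median size of the gap between the high MMP libraries was 0.34 over the members, beside 0.19 over genes whose mean was at least 1000. Between the low MMP libraries it was 0.10 over the members and 0.075 over those genes. For 21 of the 33 members the limma SE exceeded the size of the difference between groups. The epithelial marker sums given above, mostly *Krt8* and *Krt18*, had high MMP 1 highest and high MMP 2 lowest. By single marker that order held for 3 of the 6. *Cdh1* was lowest in high MMP 1 (3903, beside 4726 in high MMP 2), and *Epcam* was highest in low MMP 2 (4619). The part of these markers in the order of the members was not tested.

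The members' share of all reads also had high MMP 1 highest and high MMP 2 lowest. This share is a sum in which the most abundant members, *Pkm*, *Ldha*, *Gapdh*, *Eno1* and *Aldoa*, weigh most, so it is no separate view of the members as a set. High MMP 1 had 1.25% (Wilson 95% interval 1.24% to 1.25%) and high MMP 2 had 0.955% (0.951% to 0.959%). Low MMP 1 had 1.11% (1.10% to 1.11%) and low MMP 2 had 1.20% (1.20% to 1.21%). The 18 glycolysis rows took 1.07%, 0.796%, 0.933% and 1.02% of reads in these libraries, and the 7 pentose phosphate genes 0.122%, 0.105%, 0.112% and 0.119%. The intervals, which cover counting error only, are far narrower than the gap between the high MMP libraries.

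Which isozyme carried each step was compared per kilobase of merged exon, as a share of the family's sum. *Hk2* was 58.5% of hexokinase (*Hk1* and *Hk2*), at 58.5% ± 1.23 in the high and 58.5% ± 0.788 in the low MMP libraries (SD, n = 2 each). *Pfkl* was 71.0% ± 4.09 of phosphofructokinase in high and 75.6% ± 2.33 in low MMP cells, with 73.91% in high MMP 1 and 73.99% in low MMP 1 as the closest pair. *Pfkm* was 15.0% ± 1.23 in high and 11.3% ± 0.484 in low MMP cells, with 14.2% and 15.9% in the high MMP libraries above 11.6% and 10.9% in the low. *Pfkp* was 14.0% ± 2.87 in high and 13.1% ± 1.85 in low MMP cells. The shares of *Pfkl* and *Pfkm* did not overlap between groups, and those of *Pfkp* did.

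*Aldoa* was 99.5% of the aldolase sum, and *Aldoc* was 0.464% ± 0.0547 in the high and 0.579% ± 0.00520 in the low MMP libraries (SD, n = 2 each). *Ldha* was 98.3% of lactate dehydrogenase. *Eno1* was 69.8% and *Eno2* 0.243% of enolase, with the remainder in *Eno3*, which is no member. *Pfkfb3* was 40.0% of the PFKFB family, beside 19.0% for *Pfkfb2*, and the others, *Pfkfb1* and *Pfkfb4*, are no members. Per kilobase of the longest coding sequence, a choice made after seeing the data, *Hk2* was 50.4% of its pair and *Eno1* 87.6% of enolase, so these 2 shares depend on the length used.

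**Figure D3:**
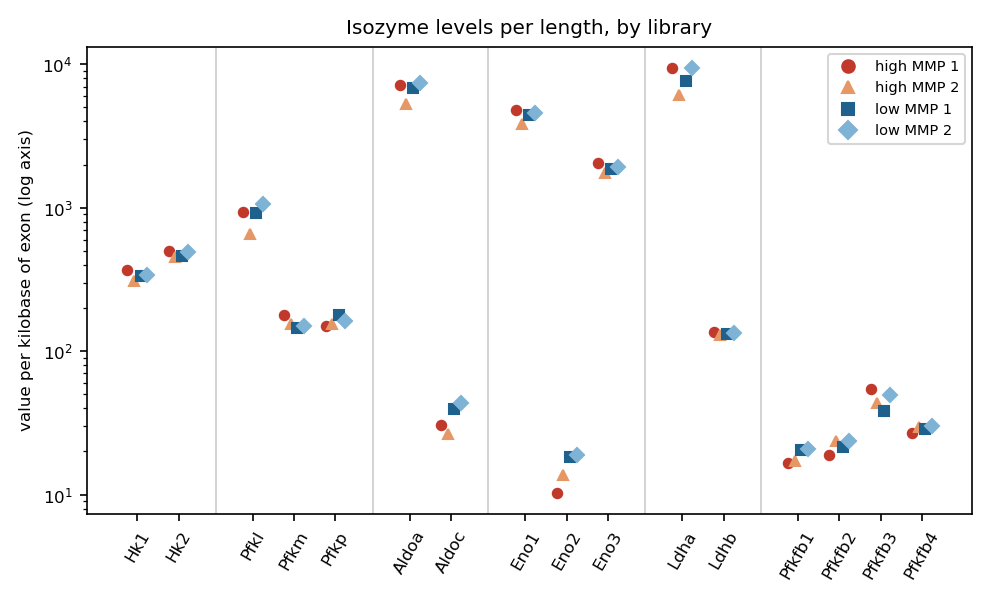
Value per kilobase of exon (y axis, log scale) for the isozymes of 6 enzyme families, with 1 symbol per library. *Hk2*, *Pfkl*, *Aldoa*, *Eno1*, *Ldha* and *Pfkfb3* lead their families in all 4 libraries, and *Aldoc* and *Eno2* are lower in both high MMP libraries than in both low ones.

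Members with lower values in both high MMP libraries included the minor isozymes *Eno2* and *Aldoc* and the upstream *Aldoa* row, all on few reads. *Slc16a1*, *Slc2a1* and *Pfkp* were also among them, with mean values of 4546, 2367 and 2158, beside a median of 2367 over the members. The differences ran from -1.17 to 0.17 over all members, and the 5 members of highest mean value (*Pkm*, *Ldha*, *Gapdh*, *Eno1* and *Aldoa*) had differences between -0.21 and 0.03. The plot of difference against level sets them beside all genes.

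**Figure D4:**
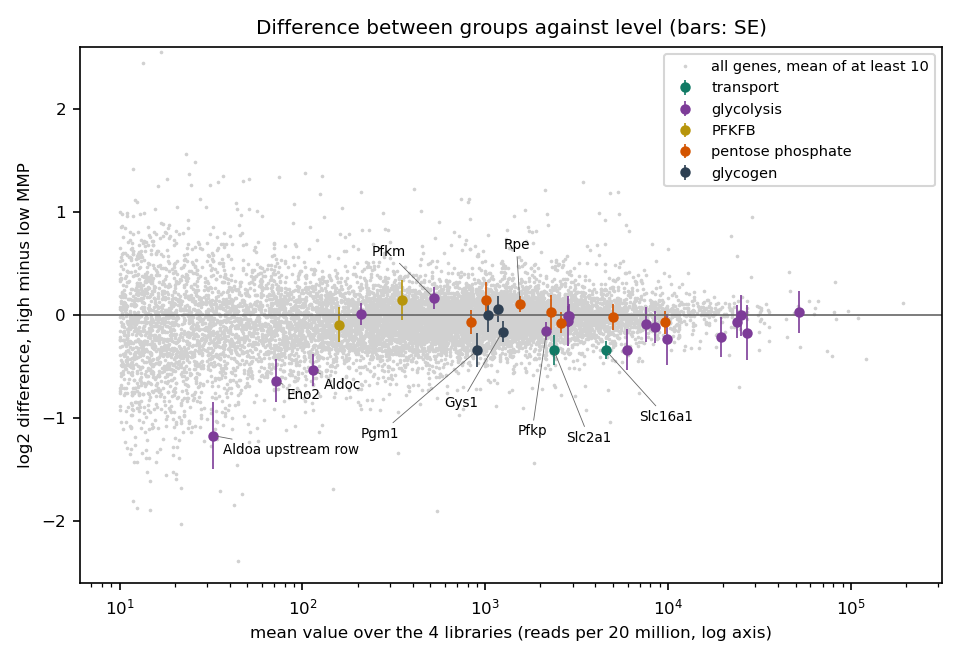
Log2 difference, high minus low MMP (y axis), against the mean value over the 4 libraries (x axis, log scale, reads per 20000000), with grey points for the 12902 genes of mean 10 or more and coloured points with SE bars for the members by role. The labelled members are the 10 whose groups do not overlap, and only *Pfkm* and *Rpe* of them lie above 0.

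Of 63 other genes of these pathways, 45 had a row, and limma called 0 of them. Groups did not overlap for 2 with higher values in high MMP cells (4.44%, beside 13.5% of all genes) and 11 with lower values (24.4%, beside 24.5%). An unadjusted p under 0.05 was found for 3 (6.67%, beside 9.96%), 1 higher (*Hk3*, on at most 1 read per library) and 2 lower. *Pygm*, the muscle glycogen phosphorylase, had 8 and 17 reads in high and 38 and 31 reads in low MMP libraries, with a difference of -1.59 (SE 0.47, adjusted limma p 0.472). *Pgm2l1*, which makes glucose 1,6-bisphosphate, had 210 and 193 in high and 248 and 252 in low MMP libraries, with a difference of -0.31 (SE 0.11, adjusted limma p 0.475). In both the groups did not overlap. The median was -0.06 over the 22 other glycolysis and transport genes, 0.03 over 7 other pentose phosphate genes and -0.10 over 16 other glycogen and gluconeogenesis genes.

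Other gene lists, given for context, had larger medians than the members' -0.07. Of 10 hypoxia-inducible genes outside glycolysis, 7 had lower values in both high MMP libraries (70.0%, beside 24.5% of all genes) and 0 had higher, with a median of -0.35 and sums of 10785, 10381, 13002 and 12740 in high MMP 1, high MMP 2, low MMP 1 and low MMP 2. Of 12 G2/M phase genes, 10 had higher values in both high MMP libraries (83.3%, beside 13.5% of all genes), with a median of 0.88 and sums of 90081, 96666, 57398 and 60372 in the same order. Of 12 S phase genes, 11 had lower values in both (91.7%, beside 24.5% of all genes), with a median of -0.45 and sums of 48681, 36716, 57653 and 59886. limma called 0 genes of these lists over all genes, while 3, 9 and 8 of them in this order had an unadjusted p under 0.05, beside 9.96% of all genes. The part of the cell cycle and of the hypoxia-inducible programme in the members' values was not tested.

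How reads shared with near-identical copies were counted is not given in the sources used here, so single values of genes with many pseudogene copies, such as *Gapdh*, *Ldha* and *Eno1*, are uncertain. Exon bases were shared with another gene of the table by 12 members, 3 of them on the same strand (*Pfkm*, *Pgls* and *Pkm*). Among the 4 members with an unadjusted limma p under 0.05 there was no such sharing. Of the members whose groups did not overlap, *Pfkp*, *Pfkm*, *Rpe*, *Pgm1* and *Gys1* shared exon bases in this way. The rest of them did not.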

How the data were processed

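The authors sequenced stranded mRNA libraries of sorted 4T1 cells with reads of 75 bases and used STAR and HTSeq on build GRCm38 (mm10), as far as the submitters' processing notes name the tools. Versions, annotation and the handling of multimapping reads are not given in the sources used here. The deposited values are a signal per gene, read counts divided by each library's total and set to 20000000, with genes detected in at least 2 samples. The table held 0 columns of other samples. All values were whole multiples of 1 step per library (100.0% within 0.05 reads), which gave the reads and depths.

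Identifiers were matched to GENCODE M21 (19993 of 20197). log2(value + 1) was tested with limma 3.58.1 (eBayes with trend, R 4.3.3), two-sided, high against low MMP, with Benjamini-Hochberg adjustment over all genes at 0.05. edgeR 4.0.16 and DESeq2 1.42.0 on the recovered reads were alternatives, as were other pseudocounts, filters, scalings, blocks and leaving out each library. The steps were run on simulated counts with planted folds and the same low dispersion for every gene. That run checked recovery of the planted folds, and it does not describe the error at the spread seen between the high MMP libraries.

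The members and lists were chosen with earlier results of these data known. Full values are given for members with an unadjusted p under 0.05, without overlap between groups, or in isozyme families. Other pathway genes are named at an unadjusted p under 0.05 and a mean of at least 10, apart from the other isozymes of the families and *Hk3*, named after its values were seen.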

Additional observations from a re-analysis of the deposited data

How the results depend on the processing

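Over 18 alternatives, 527 of 594 differences of single members kept their sign and their side of the threshold, 66 turned sign and 1 gained a call, and 11 members never turned sign. limma called 0 genes in each of its alternatives. DESeq2 called 118 genes over the table (0.985%), 0 of them members, and 2 members had an unadjusted p under 0.05, as also under quantile normalization.

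The labels give both groups the numbers 1 and 2, but deviations of same-numbered samples had a correlation of -0.42 over 12902 genes, and no source used here says that equal numbers mark a pair, so the fit has no block. Whether the samples are paired was not settled. With the replicate block, edgeR called 52 genes (0.39%), 0 of them members, and limma called 0, with 1 member at an unadjusted p under 0.05 in each. With the numbers crossed, a choice made after seeing the data, edgeR called 621 genes (4.66%) and 1 member, with 7 members at an unadjusted p under 0.05. The unadjusted counts of these blocked fits have no share over all genes beside them.

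Sign changes outside left-out libraries were confined to *Hk2*, *Hk1*, *Pgd*, *Gapdh* and *Pgam1*, all near 0. In that order without *Pgam1*, they were 0.0365, 0.0365, 0.0232 and 0.0398 with median-of-ratios scaling, 0.0325, 0.0326, 0.0192 and 0.0358 with TMM, 0.0327, 0.0328, 0.0195 and 0.036 in edgeR with the replicate block, and 0.0327, 0.0331, 0.0196 and 0.036 with the crossed block. With *Pgam1* last, they were 0.0337, 0.038, 0.0245, 0.0538 and 0.0009 in edgeR, 0.0335, 0.0376, 0.0242, 0.0534 and 0.0006 in edgeR without a filter, and 0.0378, 0.0421, 0.0288, 0.0582 and 0.0057 in DESeq2. Quantile normalization gave 0.0064 for *Hk2* and 0.0038 for *Hk1*. The causes were not tested.

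Leaving out 1 library at a time gave 0 to 6 members with an unadjusted p under 0.05, 12 to 30 members without overlap (1 against 2 samples overlap less often by construction), and medians of -0.2982 to 0.0683 for glycolysis and -0.156 to 0.1078 for the pentose phosphate branch. The counts of members in these fits, at an unadjusted p or without overlap, have no share over all genes beside them. The share without overlap over all genes was taken with all 4 libraries and does not apply to 1 against 2 samples. Whether the members differ from other genes in these counts was therefore not tested. The glycolysis median stayed below the pentose phosphate median by 0.04 to 0.14. Signs turned for 22 members, with ranges of -0.0705 to 0.0607 for *Hk2*, -0.122 to 0.1123 for *Hk1*, -0.302 to 0.0648 for *Gpi1*, -0.435 to 0.0077 for *Aldoa*, -0.5425 to 0.0718 for *Tpi1*, -0.226 to 0.2227 for *Gapdh*, -0.2944 to 0.1143 for *Pgk1*, -0.3342 to 0.2278 for *Pgam1*, -0.2225 to 0.0976 for *Eno1*, -0.1582 to 0.2257 for *Pkm*, -0.484 to 0.1471 for *Ldha* and -0.0278 to 0.0484 for *Ldhb*. They were -0.2613 to 0.0744 for *Pfkfb2*, -0.0408 to 0.3399 for *Pfkfb3*, -0.1922 to 0.2483 for *G6pdx*, -0.2036 to 0.0699 for *Pgls*, -0.1441 to 0.1078 for *Pgd*, -0.0356 to 0.3384 for *Rpia*, -0.156 to 0.0147 for *Tkt*, -0.1697 to 0.0219 for *Taldo1*, -0.0689 to 0.1919 for *Ugp2* and -0.2071 to 0.2145 for *Pgm2*.

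Per kilobase of the longest coding sequence the leading isozymes had 50.4% (*Hk2*), 68.6% (*Pfkl*), 99.3% (*Aldoa*), 87.6% (*Eno1*), 99.1% (*Ldha*) and 45.8% (*Pfkfb3*). Depth was lowest for the upstream *Aldoa* row (21 to 60 reads per library), *Eno2* (64 to 101) and *Aldoc* (104 to 161).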
